A study of Homo sapiens with 6 samples.

Results

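Rab proteins are small GTPases that sit on particular membranes of the cell and decide which vesicles form, move and fuse there. The family was taken here as every gene whose symbol is RAB, a number and at most 1 letter and 1 digit, which left out partner proteins such as RAB3GAP1. The array carried 87 probes for 62 such genes, among 20046 genes with 1 symbol in the probe annotation. Of these, 42 Rab genes were measured, among 10406 measured genes in all, where a measured gene has a probe detected, with a p-value under 0.05, on 3 or more of the 6 arrays. HaCaT cells, an immortalized line of human keratinocytes, the main cell type of the epidermis, were compared with and without histamine. The medium of all 6 samples was DMEM that held 1.5 mM calcium and 10% serum. The histamine group received 1 µg/ml histamine for 24 h, and the control group is known only by its label, since the labels do not say what it received in place of histamine. Each group holds 3 samples, 1 Illumina bead array each, and the labels speak only of a triplicate, so the spread behind each p-value is that between these samples and can be partly technical.

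A Rab protein works as a switch. A guanine nucleotide exchange factor (GEF) loads it with GTP on the right membrane, the GTP-bound form recruits effectors such as tethers and motor adaptors, and a GTPase activating protein (GAP), usually with a TBC domain, turns it off. Prenyl groups hold Rab proteins in the membrane, and the GDI proteins take the inactive form out again. In keratinocytes, Rab proteins serve the uptake of melanosomes from melanocytes, the recycling of adhesion receptors and the secretion of lamellar bodies, among other routes.

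The median raw signal was 122, 141 and 133 in controls and 122, 121 and 124 with histamine, so control replicates 2 and 3 lay above every histamine array. The share of probes detected was 39.2%, 40.9% and 36.7% in controls and 37.7%, 37.5% and 37.8% with histamine. On each array 50 to 54 of the 87 Rab probes were detected. The first principal component of all genes held 56.4% of the variance and separated the controls (-29.0, -25.9 and -15.5) from the histamine arrays (27.0, 21.4 and 21.9). Sample names of each group come from a separate numbered series, so any batch that follows those names and the treatment cannot be told apart. The 8 keratinocyte markers on the array were detected on all 6 arrays, with a summed raw signal of 29478 to 37303 in controls and 29095 to 36105 with histamine. Skeletal muscle transcripts stood out on the histamine arrays. Of 12 muscle markers, 1 to 3 were detected on a control array, against 11, 7 and 8 on histamine replicates 1, 2 and 3, and their summed raw signal was 1404 to 1653 in controls and 2481 to 35573 with histamine. ACTA1, skeletal muscle actin, read 4.52, 4.66 and 4.54 on the log2 scale in the controls and 13.93, 9.51 and 9.19 with histamine, and TNNI1 was detected on no array. Of 6 melanocyte markers on the array, TYR, TYRP1 and SLC45A2 were detected on no array, and the summed signal was 703 to 851 in controls and 685 to 701 with histamine. Erythrocyte markers, 6 on the array, had a summed signal of 699 to 867 in controls and 770 to 1496 with histamine, with 2, 2 and 0 of them detected on the controls and 3, 3 and 2 with histamine, and HBG1 and ALAS2 on no array. The part of the muscle and erythrocyte transcripts in the Rab values below was not tested, and the values without histamine replicate 1, where muscle transcripts were highest, are given beside the calls. In RNA from whole cultures, fewer cells of a type and less RNA per cell cannot be told apart.

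Between the histamine and control groups 8 of the 42 measured Rab genes differed, 4 higher and 4 lower with histamine. RAB33B, RAB8B, RAB34 and RAB2A rose, and RAB7B, RAB36, RAB22A and RAB10 fell. The differences ran from -1.13 in RAB7B, a Rab of late endosomes and lysosomes, to 1.00 in RAB33B, a Rab of the Golgi. Both of these probes were dim and met the detection filter through the group where they were high. A stricter filter that left them out called 6 of 36 Rab genes and 2032 genes in all. The share of all genes called under that filter is not given here, so the 6 cannot be read against it. The family as a whole moved no more often than other genes. At an adjusted p under 0.05 (limma, 2-sided, Benjamini-Hochberg over all measured genes), 19.0% of measured Rab genes changed against 21.4% of all 10406 genes. The share that rose was 9.52% against 9.29%, and the share that fell was 9.52% against 12.1%. The groups did not overlap in 16 Rab genes (38.1%), against 37.4% of all genes. Differences are given throughout as histamine minus control on the log2 scale of normalized intensity. Their median was -0.09 over the 42 Rab genes and -0.08 over all genes, with 24 Rab genes below 0 and 18 above. The counts of changed genes, among Rab genes and over all genes, depended on single arrays. Leaving out 1 array at a time gave 5, 4 and 8 changed Rab genes without control replicate 1, 2 or 3, and 5, 3 and 5 without histamine replicate 1, 2 or 3. In the same order the count over all genes went from 2224 to 1455, 1218 and 2544, and to 1604, 1615 and 1527. Without control replicate 3 the 8 genes were another set, with RAB33B lost and RAB25 gained. Scaling the arrays by their medians in place of quantile normalization moved the median of all genes from -0.08 to -0.26, and the split of Rab genes from 4 higher and 4 lower to 1 higher and 6 lower (456 higher and 1816 lower among all genes, in place of 967 and 1257).

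**Figure D1:**
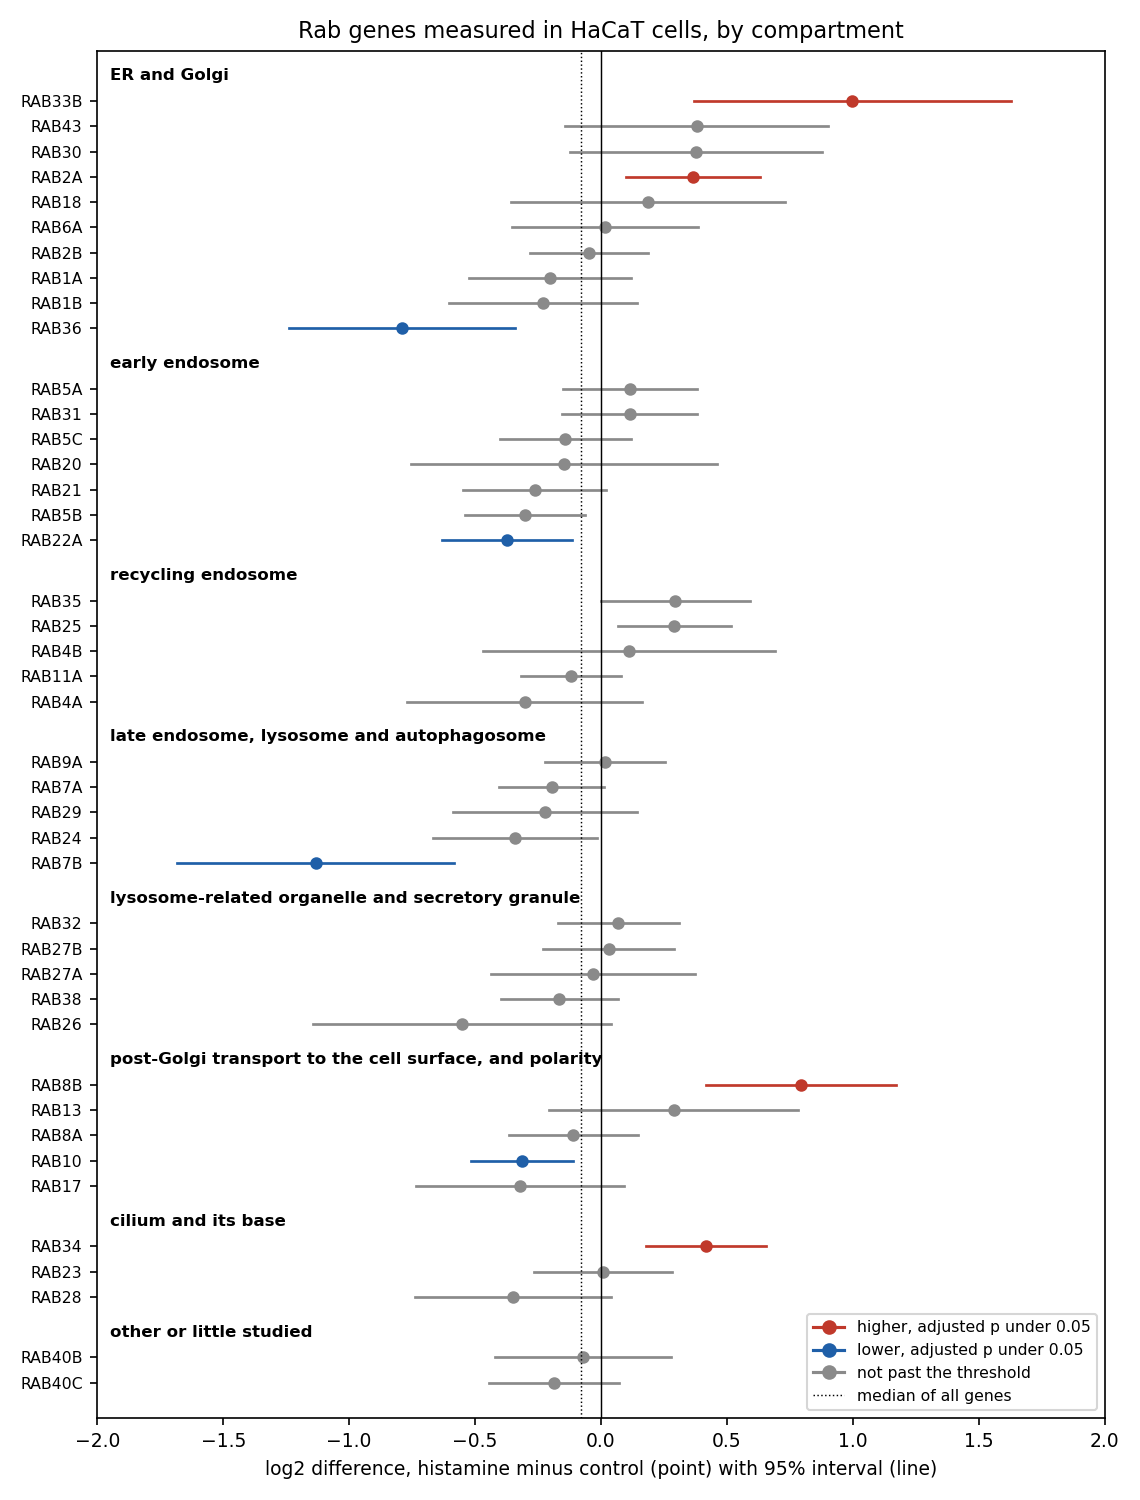
Log2 difference between histamine and control for each of the 42 measured Rab genes, grouped by the compartment where the protein is known to act. Points are the limma estimates from 3 against 3 arrays, lines their 95% intervals, and the dotted line the median of all genes (-0.08). The 4 red genes and the 4 blue genes are spread over 5 compartments, and 34 genes are grey.

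The other 34 measured Rab genes lay between -0.55 and 0.38 and did not pass the threshold. Their values do not show that they stayed level. The 95% interval reached 0.31 to either side of the estimate in the median Rab gene, and in 16 of the 42 the interval lay within 0.5 of 0 on the log2 scale. Of the 34, RAB25, RAB5B and, on its brightest probe, RAB24 had a limma p-value under 0.05 before adjustment for multiple tests. The share of all genes under that unadjusted threshold was not counted. The 20 Rab genes that were not measured include 13 detected on no array. Among these are all 4 RAB3 genes on the array (RAB3A, RAB3B, RAB3C, RAB3D), which act in regulated secretion, and RAB39A, RAB39B, RAB33A, RAB6B, RAB6C, RAB6D, RAB9B, RAB19 and RAB41. The remaining 7 were detected on 1 or 2 arrays of 1 group. RAB12 was detected on 2 control arrays and RAB11B on 1, while RAB14, RAB15, RAB37, RAB40A and RAB42 were each detected on 1 histamine array at most.

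Promoters are shown for 2 Rab genes that rose and 2 that fell, from RefSeq on build GRCh38.p14, each from 250 bases before to 50 after the annotated start, 5′ to 3′ on the gene's strand. Capitals mark matches to motifs searched on both strands. The GC box was searched as GGGCGG and the AP-1 site, where N is any base, as TGANTCA. For the E-box the letters searched were CACGTG, and for the TATA box they were TATAAA.
RAB8B, chr15:63189356-63189655, plus strand: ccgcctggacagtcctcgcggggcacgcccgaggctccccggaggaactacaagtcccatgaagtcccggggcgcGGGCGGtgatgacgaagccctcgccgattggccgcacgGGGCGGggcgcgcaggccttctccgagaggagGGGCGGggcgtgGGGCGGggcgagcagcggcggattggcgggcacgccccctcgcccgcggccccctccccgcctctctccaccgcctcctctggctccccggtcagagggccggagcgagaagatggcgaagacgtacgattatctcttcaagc
RAB34, chr17:28718219-28718518, minus strand, the first of 3 entries: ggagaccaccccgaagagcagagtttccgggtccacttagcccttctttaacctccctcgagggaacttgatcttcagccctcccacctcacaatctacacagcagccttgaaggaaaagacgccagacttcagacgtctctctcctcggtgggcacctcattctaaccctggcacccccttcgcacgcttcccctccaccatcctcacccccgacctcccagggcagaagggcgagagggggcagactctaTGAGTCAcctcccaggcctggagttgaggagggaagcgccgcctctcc
RAB10, chr2:26033834-26034133, plus strand: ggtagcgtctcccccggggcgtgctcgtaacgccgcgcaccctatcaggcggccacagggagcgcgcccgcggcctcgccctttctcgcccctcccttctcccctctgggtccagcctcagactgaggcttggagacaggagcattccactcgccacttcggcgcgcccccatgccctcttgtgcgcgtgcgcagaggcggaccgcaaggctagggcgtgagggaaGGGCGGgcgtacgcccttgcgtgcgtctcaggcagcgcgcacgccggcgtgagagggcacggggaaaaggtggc
RAB7B, chr1:206003346-206003645, minus strand, the first of 2 entries: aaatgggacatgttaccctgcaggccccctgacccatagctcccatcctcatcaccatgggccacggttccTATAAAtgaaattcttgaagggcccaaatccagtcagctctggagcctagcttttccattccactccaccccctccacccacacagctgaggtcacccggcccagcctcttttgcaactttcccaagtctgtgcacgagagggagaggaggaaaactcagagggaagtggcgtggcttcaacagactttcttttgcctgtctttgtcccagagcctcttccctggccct
The RAB8B window was 73.3% G and C with 38 CpG dinucleotides and held 4 GC boxes, 175, 137, 105 and 93 bases before the start. The RAB10 window was similar in composition, at 71.3% with 35 CpG dinucleotides, with 1 GC box 24 bases before the start. RAB34 had 60.7% G and C, 12 CpG dinucleotides and an AP-1 match 2 bases after the start. RAB7B differed from these, with 55% G and C, 4 CpG dinucleotides, no GC box and a TATA box match 179 bases before the start. Over all 35116 promoter windows, 45% held the GC box, 7.71% the AP-1 letters, 7.26% the E-box and 11.5% the TATA box. Among the 35 measured Rab genes with an entry, 28 (80%) held a GC box, 2 (5.71%) the AP-1 letters, 6 (17.1%) the E-box and 1, RAB7B, the TATA box. The 2 sets are unlike, so their shares cannot be compared directly. The 35116 windows count every entry of every gene, measured or not, and the Rab windows only the first entry of each measured gene. Of the 5 changed Rab genes with an entry, the GC box was in RAB8B, RAB10 and RAB22A, the E-box in 0. Such matches describe the letters of these windows and say nothing on which factor binds there.

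Of all measured genes 21.4% changed. Each compartment holds few measured Rab genes, so the counts below do not show that 1 compartment changed more or less often than another. Of the Rab genes of the endoplasmic reticulum (ER) and Golgi, 10 of 15 were measured, 2 rose and 1 fell, with a median difference of 0.10. RAB33B, a Golgi Rab that also takes part in autophagosome formation, read 5.00, 5.41 and 4.98 on the control arrays and 5.54, 6.28 and 6.56 with histamine. All 3 histamine values lay above all controls, replicate 1 only narrowly so, and the transcript was detected on 1 of 3 control arrays against 3 of 3 with histamine. RAB33B rose by 1.00 ± 0.30 (SE, n = 3 per group; limma adjusted p = 0.0243), or 2.0-fold. That call was lost without control replicate 1 (adjusted p = 0.0814), control replicate 3 (0.0502), histamine replicate 2 (0.0825) or histamine replicate 3 (0.124), where the difference stayed between 0.78 and 0.93. The size of the rise depended on the treatment of background, as it did for the other dim probes. It was 0.60 with an offset of 50, 0.40 without background correction and 0.27 in the authors' processed table, and the call was also lost without a filter on dim probes (adjusted p = 0.0708).

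RAB36, a Golgi Rab known to gather late endosomes and lysosomes near the Golgi, went the other way. It read 7.06, 7.32 and 6.89 in controls against 6.15, 6.46 and 6.29 with histamine, and the groups did not overlap. RAB36 fell by 0.79 ± 0.21 (SE, n = 3 per group; limma adjusted p = 0.0142), or 1.73-fold. Without control replicate 2 the difference was -0.67 and the call was lost (adjusted p = 0.0900), as it was without a filter on dim probes (adjusted p = 0.0882). The difference was -0.41 without background correction and -0.30 in the authors' processed table, and it passed in both.

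RAB2A, which acts between the ER and the Golgi, read 9.03, 9.11 and 9.25 in controls and 9.55, 9.49 and 9.45 with histamine, a narrow but complete separation. The rise was 0.36 ± 0.13 (SE, n = 3 per group; limma adjusted p = 0.0471), or 1.29-fold. It is the weakest of the 8 calls. A second RAB2A probe read 0.02 ± 0.19 with overlapping groups (adjusted p = 0.953), the mean of both probes gave 0.19 (adjusted p = 0.322), and the call was lost without control replicate 1 or 2 or any of the 3 histamine replicates (adjusted p = 0.0930 to 0.141). It was also lost with median scaling (0.16; adjusted p = 0.599), without a filter on dim probes (0.0651), without the intensity trend (0.0829) and with the replicate block (0.0785). RAB2B, the paralog of RAB2A, read 10.38, 10.25 and 10.38 in controls and 10.40, 10.21 and 10.25 with histamine, and the groups overlapped. Its difference of -0.05 ± 0.11 did not pass (adjusted p = 0.791). RAB1A and RAB1B, which serve ER to Golgi traffic, were at -0.20 ± 0.15 and -0.23 ± 0.18, and did not pass. RAB18, of lipid droplets and the ER, was at 0.19 ± 0.26, with 5.90 and 6.88 as the lowest and highest histamine values.

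RAB6A, the main Rab of retrograde transport through the Golgi, gave different answers on its 2 kept probes, which the annotation assigns to separate RefSeq transcripts. The brighter probe read 7.93, 8.40 and 8.31 in controls and 8.51, 8.10 and 8.07 with histamine, and its difference of 0.02 ± 0.18 did not pass (limma adjusted p = 0.960). On the other probe the controls read 5.41, 6.29 and 6.45, and the histamine arrays read 7.79, 7.54 and 7.83. All 3 histamine values stood more than 1 unit above the highest control. With every kept probe tested singly, where 21.8% of 13743 probes changed, this probe rose by 1.67 ± 0.25 (SE, n = 3 per group; adjusted p = 0.000177), and it was called under all 16 alternative settings, between 0.68 (the authors' processed table) and 1.87. It was the only 1 of the 11 additional kept Rab probes that changed, and 9 of all 53 kept Rab probes did (17.0%). Averaging both RAB6A probes gave a rise of 0.84 (adjusted p = 0.00825), so the call for the gene turned on the choice of probe. RAB6C, a near-identical intronless copy, was detected on no array by its own probe. Which RAB6A transcripts each probe binds, and whether either probe also binds RAB6C RNA, was not tested.

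**Figure D2:**
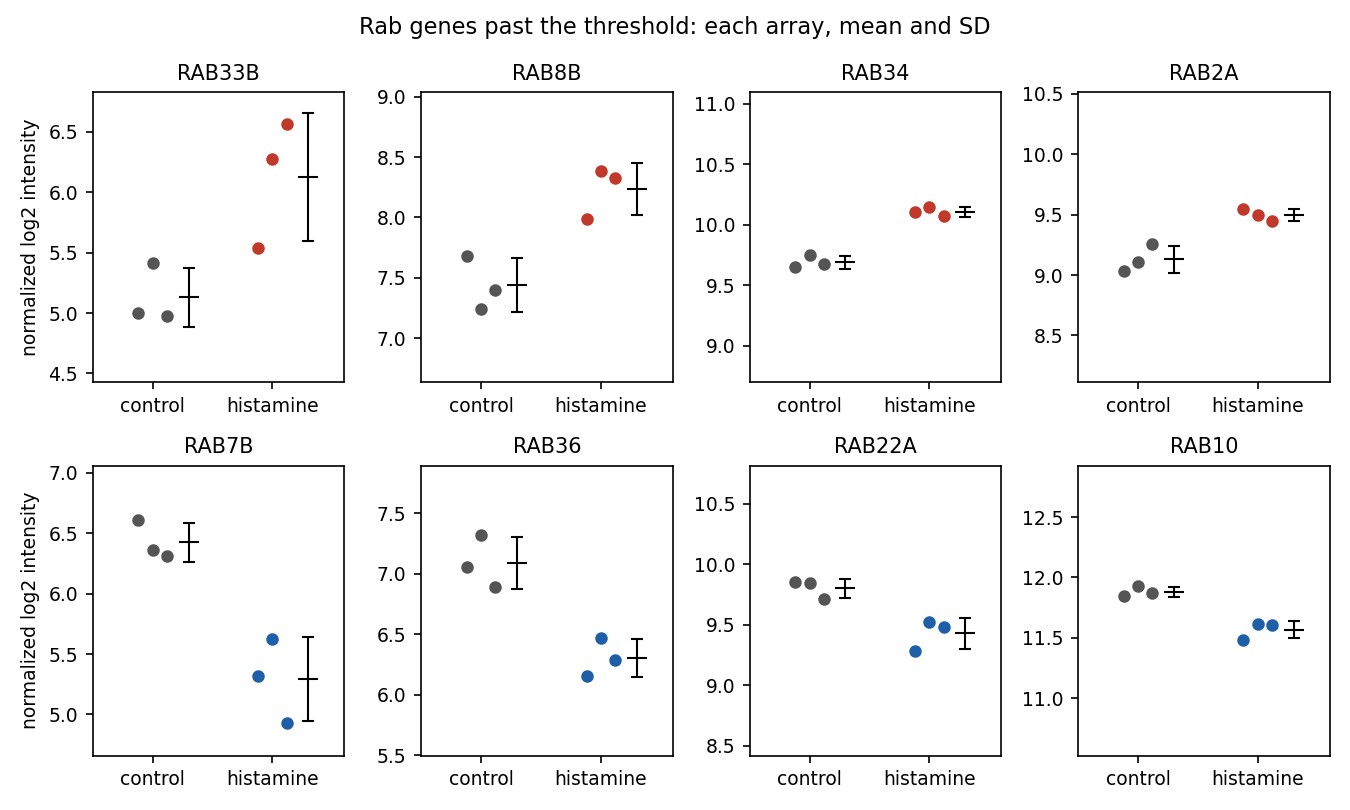
Normalized log2 intensity of the 8 changed Rab genes on each array, 3 control and 3 histamine, with the group mean and SD beside the points. In every panel the 2 groups are separate, with the widest gap in RAB7B (4.93 to 5.63 against 6.31 to 6.61) and the narrowest in RAB33B (4.98 to 5.41 against 5.54 to 6.56).

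All 7 early endosome Rab genes on the array were measured, and 1 fell (21.4% of all genes changed). RAB22A, which acts on early endosomes and in recycling from them, read 9.85, 9.84 and 9.71 in controls and 9.28, 9.52 and 9.48 with histamine. The groups did not overlap, and RAB22A fell by 0.37 ± 0.12 (SE, n = 3 per group; limma adjusted p = 0.0385), or 1.29-fold. Its call was lost without control replicate 1 or 2 or any of the 3 histamine replicates (adjusted p = 0.0527 to 0.161; difference -0.42 to -0.30), and also without a filter on dim probes (0.0557), without the intensity trend (0.0868) and with the replicate block (0.0638). With median scaling the difference was -0.58. The RAB5 genes organize homotypic fusion of early endosomes. RAB5B read 10.33, 10.37 and 10.38 in controls and 9.92, 10.17 and 10.08 with histamine, and although these groups did not overlap, its difference of -0.30 ± 0.11 did not pass (adjusted p = 0.0641). RAB5C was at -0.14 ± 0.12 (adjusted p = 0.443) and at -0.07 on its second probe, with overlapping groups on both. RAB5A was at 0.12 ± 0.13. RAB31, the closest relative of RAB22A in the family, was at 0.11 ± 0.13, and RAB21 and RAB20 were at -0.26 and -0.15. The median over the 7 genes was -0.15.

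None of the 5 measured recycling endosome Rab genes, of 8 on the array, passed the threshold, and their differences ran from -0.30 to 0.29. With 21.4% of all genes changed, 5 genes are too few to show that this group was spared. RAB11A, the general Rab of recycling endosomes, read 12.23, 12.16 and 12.19 in controls and 11.99, 12.09 and 12.14 with histamine, and its difference was -0.12 ± 0.09 (limma adjusted p = 0.391). RAB25 is the epithelial member of the RAB11 subfamily and is known for integrin recycling. It read 11.37, 11.29 and 11.58 in controls and 11.70, 11.81 and 11.59 with histamine. The groups were apart by a small margin, and the difference of 0.29 ± 0.11 missed the threshold (adjusted p = 0.0609), passing only without control replicate 3 (adjusted p = 0.0166). RAB35, which acts in fast recycling and at cell junctions, was at 0.29 ± 0.14 (adjusted p = 0.148), and RAB4A and RAB4B were at -0.30 ± 0.22 and 0.11 ± 0.28.

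Among Rab genes of late endosomes, lysosomes and autophagosomes, 5 of 9 were measured and 1, RAB7B, fell (21.4% of all genes changed). RAB7B is known for transport from late endosomes and lysosomes to the Golgi. It read 6.61, 6.36 and 6.31 in controls and 5.32, 5.63 and 4.93 with histamine. The lowest control lay well above the highest histamine value, and the transcript was detected on 3 control arrays but on 1 of 3 histamine arrays. RAB7B fell by 1.13 ± 0.26 (SE, n = 3 per group; limma adjusted p = 0.00546), or 2.19-fold, a size that rests on a histamine mean mostly not above background. It was called lower in all 15 alternative settings that tested it, but the difference ranged from -1.30 to -0.31. Leaving out single arrays gave -1.30 to -0.95, an offset of 50 gave -0.71, no background correction -0.46 and the authors' processed table -0.31. RAB7A, the general Rab of late endosomes and of fusion with lysosomes, read 12.09, 12.09 and 12.26 in controls and 11.83, 11.97 and 12.04 with histamine. Its difference of -0.20 ± 0.10 did not pass (adjusted p = 0.174). RAB9A, which returns mannose 6-phosphate receptors to the Golgi, read 10.49, 10.53 and 10.51 in controls and 10.41, 10.71 and 10.45 with histamine, with a difference of 0.01 ± 0.11 (adjusted p = 0.942). RAB24, linked to autophagy, was at -0.34 ± 0.15 (adjusted p = 0.125) on its brightest probe, and RAB29 was at -0.22 ± 0.17. The other kept RAB24 probes were at 0.22 ± 0.19 and -0.14 ± 0.27, with overlapping groups.

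The Rab genes of lysosome-related organelles and secretory granules, which keratinocytes share with melanocytes in part, showed no call. Of 10 on the array 5 were measured, between -0.55 and 0.07, too few to show that the group was spared (21.4% of all genes changed). RAB38 and RAB32, which carry cargo to melanosomes and other lysosome-related organelles, read 11.83, 11.90 and 11.57 and 10.44, 10.59 and 10.43 in controls. With histamine RAB38 read 11.57, 11.74 and 11.49, and RAB32 read 10.60, 10.39 and 10.69. Both overlapped between groups, at -0.17 ± 0.11 (limma adjusted p = 0.307) and 0.07 ± 0.12 (adjusted p = 0.702). RAB27A and RAB27B, which dock secretory organelles at the plasma membrane, were at -0.03 ± 0.19 and 0.03 ± 0.12 on their brightest probes. Their second kept probes, both dim, were at 0.45 ± 0.36 and 0.73 ± 0.31. The groups overlapped on both, and neither passed with every kept probe tested singly (limma adjusted p = 0.393 and 0.0992). RAB26, linked to granule maturation, was at -0.55 ± 0.28 with overlapping groups (adjusted p = 0.176).

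All 5 Rab genes of transport from the Golgi to the cell surface and of cell polarity were measured, and 1 rose while 1 fell (21.4% of all genes changed). RAB8B, which with RAB8A carries cargo from the Golgi to the plasma membrane, read 7.68, 7.24 and 7.40 in controls and 7.99, 8.39 and 8.33 with histamine. The groups did not overlap, and RAB8B rose by 0.79 ± 0.18 (SE, n = 3 per group; limma adjusted p = 0.00472), or 1.73-fold. It passed in every setting tried except median scaling, where the difference was 0.59 (adjusted p = 0.0632), and was at 0.46 in the authors' processed table. RAB10, which delivers vesicles to the plasma membrane and is best known for the glucose transporter of fat cells, read 11.84, 11.93 and 11.88 in controls and 11.48, 11.61 and 11.61 with histamine. RAB10 fell by 0.31 ± 0.10 (adjusted p = 0.0282), or 1.24-fold, with replicates of each group close together. Its call was lost without control replicate 2 or any of the 3 histamine replicates (adjusted p = 0.0558 to 0.123; difference -0.33 to -0.27), and also without a filter on dim probes (0.0542) and without the intensity trend (0.109). With median scaling the difference was -0.52. RAB8A read 11.45, 11.09 and 10.97 in controls and 11.06, 10.98 and 11.14 with histamine, overlapped between groups and was at -0.11 ± 0.12 (adjusted p = 0.556). RAB13, of tight junctions, was at 0.29 ± 0.24, with histamine values from 8.18 to 9.44, and RAB17, of epithelial polarity, was at -0.32 ± 0.20.

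All 3 Rab genes placed at the cilium and its base were measured. RAB34, needed in mammals for an early step of cilium formation and also known on macropinosomes, read 9.65, 9.75 and 9.67 in controls and 10.10, 10.15 and 10.07 with histamine. Replicates lay close together in both groups, which did not overlap. RAB34 rose by 0.42 ± 0.11 (SE, n = 3 per group; limma adjusted p = 0.0144), or 1.34-fold. The call was lost with median scaling (0.22; adjusted p = 0.437) and, by a small margin, without histamine replicate 2 (0.40; adjusted p = 0.0515). RAB23, a regulator of Hedgehog signalling, read 9.16, 9.05 and 9.22 in controls and 9.07, 9.10 and 9.28 with histamine, at 0.01 ± 0.13, and its second probe was at 0.00. RAB28 was at -0.35 ± 0.18 (adjusted p = 0.190) on its brightest probe and at 0.14 ± 0.20, with overlapping groups, on its second. Of the 5 genes with other or little studied roles, RAB40C and RAB40B, whose proteins join ubiquitin ligases through a SOCS box, were measured. RAB40C was at -0.19 ± 0.12 and RAB40B at -0.07 ± 0.17, both with overlapping groups.

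Muscle transcripts were raised on all 3 histamine arrays, so leaving out replicate 1, where they were highest, lowers but does not remove them, and their part in the calls was not tested. The values without that array were as follows. RAB33B, RAB8B, RAB34, RAB36 and RAB7B passed without it, at 1.29, 0.92, 0.42, -0.71 and -1.15 (limma adjusted p = 0.00577, 0.00339, 0.0446, 0.0488 and 0.0104). RAB10, RAB22A and RAB2A did not, at -0.27, -0.30 and 0.34 (adjusted p = 0.123, 0.161 and 0.141). The second RAB6A probe was at 1.64 (adjusted p = 0.000611).

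**Figure D3:**
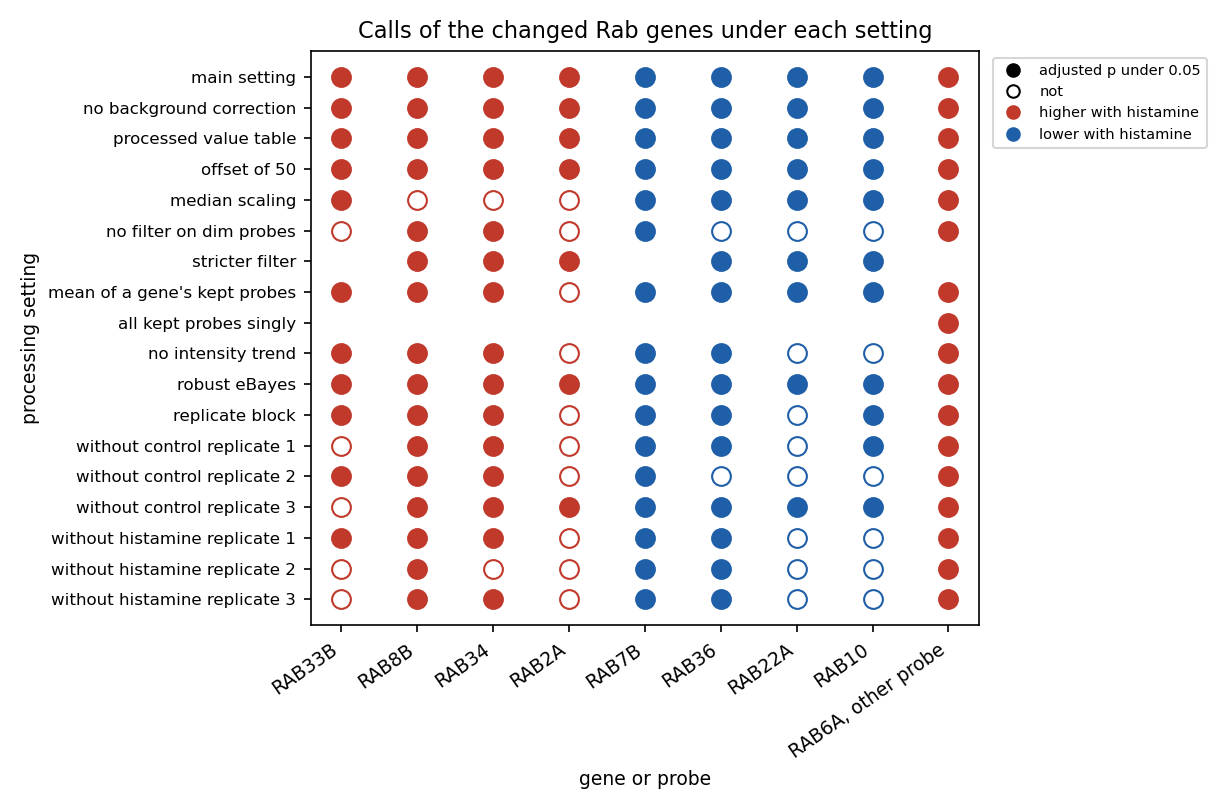
Calls of the 8 changed Rab genes and of the second RAB6A probe under the main setting and each alternative. Filled circles passed an adjusted p under 0.05, open circles did not, and a blank means that the setting did not test that gene or probe under this name. RAB7B and the second RAB6A probe are filled wherever tested, and RAB2A, RAB22A and RAB10 are open in 10, 8 and 6 settings.

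Related Rab genes were also set against each other within each array, as the log2 ratio of their signals relative to the mean of the 3 controls, which shows unequal change and not which partner moved. Of 13 paralog pairs and the 2 RAB6A probes, 14 ratios in all, 8 did not overlap between groups. Of the 10 Rab genes with several kept probes, only RAB6A entered with a probe ratio. Its probes differ as given above, so its place among the 8 restates that difference and adds no support. Among all measured genes taken singly 37.4% did not overlap, and no share was counted over ratios of other gene pairs. With 3 against 3 arrays the exact 2-sided permutation test cannot go below p = 0.1, and after adjustment over the 14 ratios the smallest value was 0.175, so none could pass. RAB8B over RAB8A was at -0.04, -0.12 and 0.16 in controls and higher by 0.91 on average with histamine. RAB7B over RAB7A changed by -0.94 on average, and all 3 histamine ratios lay below the controls. RAB31 over RAB22A, which are paralogs of early endosomes, changed by 0.49 and RAB25 over RAB11A by 0.41. Ratios of RAB2B to RAB2A and of RAB5B to RAB5A changed by -0.41 and -0.42, and that of RAB5C to RAB5A by -0.26. The RAB2A value here is that of its brightest probe. Its second probe, at 0.02, lay near RAB2B at -0.05, so that ratio depends on the probe. The ratio of the second to the brighter RAB6A probe changed by 1.66. Ratios within the RAB1, RAB4, RAB27 and RAB40 pairs, RAB38 over RAB32 and RAB5C over RAB5B overlapped between groups. The ratios reuse the values behind the single gene results and are not independent of them.

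**Figure D4:**
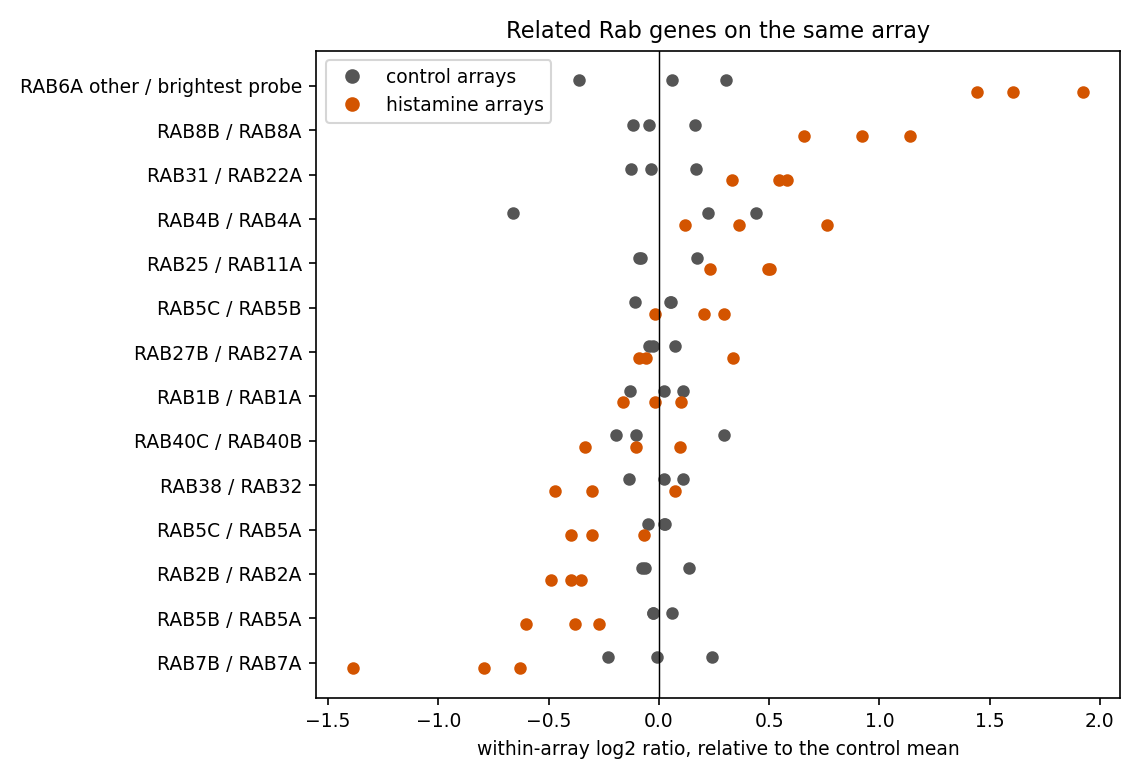
Log2 ratio of related Rab genes on the same array, relative to the mean ratio of the 3 controls, for 14 pairs. Grey points are control arrays and orange points histamine arrays. The second RAB6A probe and RAB8B moved up against their partners, RAB7B moved down, and 6 ratios overlapped between groups.

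The proteins that load, unload and read Rab GTPases were followed in 4 lists of 139 genes, of which 127 were on the array and 97 were measured. Of the 97 genes 6 rose, 12 fell and 79 did not pass, so 18.6% changed, against 21.4% of all genes, and their median difference was -0.13. Among prenylation and extraction factors 1 of 6 rose and 0 fell (16.7%, against 21.4% of all genes). GDI2, which takes inactive Rab proteins out of membranes, read 11.66, 12.11 and 12.04 in controls and 12.18, 12.32 and 12.31 with histamine, a rise of 0.33 ± 0.11 (limma adjusted p = 0.0483). Without control replicate 1 it was at 0.19 (adjusted p = 0.222), and without any single histamine array it did not pass either (adjusted p = 0.0552 to 0.138), and with median scaling it was at 0.12 (adjusted p = 0.596).

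Of the 40 GEFs measured, the longest of the 4 lists, 2 rose and 8 fell (25.0%, against 21.4% of all genes), with a median of -0.23. Over all genes 9.29% rose and 12.1% fell, with a median of -0.08. DENND4A, a GEF for RAB10, read 6.28, 6.31 and 6.99 in controls and 7.43, 7.75 and 7.56 with histamine, a clear separation, and rose by 1.05 ± 0.22 (limma adjusted p = 0.00276). RAB10 itself fell, as given above. DENND1A, a GEF for RAB35, read 9.20, 8.87 and 9.29 in controls and 8.50, 8.32 and 8.40 with histamine, and fell by 0.71 ± 0.15 (adjusted p = 0.00262). A second DENND1A probe fell by 1.31 ± 0.23 (adjusted p = 0.000645). Both genes passed under all 16 alternatives, DENND4A at 0.45 in the authors' processed table. MON1B, which with CCZ1 activates RAB7A, read 7.01, 7.14 and 6.67 in controls and 5.81, 6.51 and 6.01 with histamine, and fell by 0.83 ± 0.24 (adjusted p = 0.0202), but it did not pass once control replicate 1, control replicate 2, histamine replicate 1 or histamine replicate 3 was left out (adjusted p = 0.0581 to 0.107), nor without a filter on dim probes (0.112), and it was at -0.28 in the authors' processed table. ANKRD27, also called VARP, is a GEF for RAB21 and an effector of RAB32 and RAB38. It read 5.81, 6.35 and 6.69 in controls and 7.03, 6.78 and 7.13 with histamine, a rise of 0.70 ± 0.24 (adjusted p = 0.0483) that was lost in 11 of 16 alternatives, among them those without control replicate 1 (0.46; adjusted p = 0.224) and control replicate 2 (0.73; adjusted p = 0.110) and each without 1 histamine array (adjusted p = 0.0577 to 0.142). In the authors' processed table it was at 0.24 (adjusted p = 0.0526). The other members that fell were RAB3GAP1, HPS1, DENND4B, TRAPPC5, TRAPPC1 and CCZ1. Of these RAB3GAP1, which forms a GEF for RAB18 with RAB3GAP2, is singled out after its values were seen, because it passed under all 16 alternatives. It read 10.26, 10.17 and 10.13 in controls and 9.63, 9.49 and 9.65 with histamine, and fell by 0.60 ± 0.12 (adjusted p = 0.00161). CCZ1 fell by 0.35 (adjusted p = 0.0499) on its brightest probe only, while its other probes were at 0.01 and 0.02, and HPS1's second probe was at 0.19.

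TBC family GAPs showed 0 genes higher and 3 lower of 27 measured (11.1%), with a median of -0.20. Of all measured genes 21.4% changed and 12.1% fell, so the share that fell was near that of all genes. RABGAP1, a GAP that binds RAB6A, read 10.67, 10.83 and 10.68 in controls and 9.55, 9.79 and 9.50 with histamine. Every histamine value lay about 1 unit below the controls, and RABGAP1 fell by 1.11 ± 0.12 (limma adjusted p = 6.79e-06), the lowest adjusted p among the members of the 4 lists and the Rab genes. TBC1D14, which binds RAB11 and tunes autophagosome formation, fell by 0.65 ± 0.14 (adjusted p = 0.00414), and both genes passed under all 16 alternatives. EVI5, also a partner of RAB11, fell by 0.57 ± 0.18 (adjusted p = 0.0315) and did not pass once any control replicate or histamine replicate 1 or 2 was left out (adjusted p = 0.0630 to 0.126), nor without a filter on dim probes (0.0883), and it was at -0.30 in the authors' processed table.

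Among effectors 3 rose and 1 fell of 24 measured (16.7%, against 21.4% of all genes), with a median of -0.05. RILPL1, which binds RAB8 and RAB10 once these are phosphorylated, read 8.24, 8.25 and 9.16 in controls and 9.33, 9.43 and 9.46 with histamine. The third control lay close to the histamine arrays, and the rise was 0.86 ± 0.19 (limma adjusted p = 0.00478), a call lost without the intensity trend (adjusted p = 0.0535). RAB11FIP5, a RAB11 effector, rose by 0.61 ± 0.18 (adjusted p = 0.0210), a call that needed control replicates 1 and 2 and histamine replicates 2 and 3 (without 1 of these, adjusted p = 0.0511 to 0.0860). It was also lost with median scaling (0.41; adjusted p = 0.221) and without a filter on dim probes (adjusted p = 0.0613), and it was at 0.33 in the authors' processed table. BICD2, the adaptor that joins RAB6 vesicles to dynein, read 10.09, 9.81 and 10.10 in controls and 10.85, 10.51 and 10.34 with histamine. BICD2 rose by 0.57 ± 0.14 (adjusted p = 0.00703) and did not pass without control replicate 2 (0.47; adjusted p = 0.0523), with median scaling (0.36; adjusted p = 0.152) or without the intensity trend (adjusted p = 0.0606). APPL2, an effector of RAB5 on early endosomes, fell by 0.44 ± 0.14 (adjusted p = 0.0315) and did not pass once control replicate 1, control replicate 2 or any histamine replicate was left out (adjusted p = 0.0557 to 0.104), nor with the replicate block (0.0559).

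**Figure D5:**
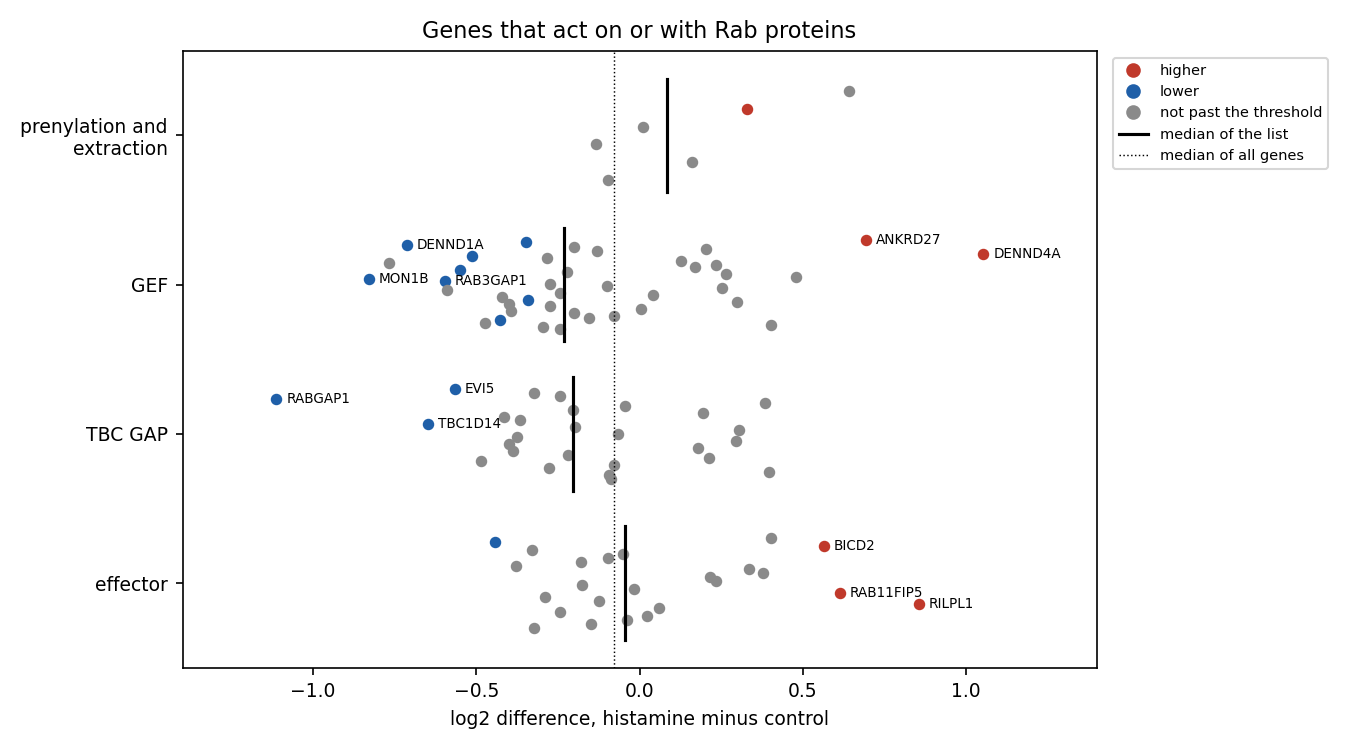
Log2 difference between histamine and control for the 97 measured genes of the 4 lists of proteins that act on or with Rab GTPases. Red and blue points passed an adjusted p under 0.05, short lines are the medians of the lists and the dotted line that of all genes (-0.08). RABGAP1 lies farthest to the left at -1.11 and DENND4A farthest to the right at 1.05.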

How the data were processed

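Total RNA of HaCaT cells, 3 control and 3 histamine samples, was hybridized to Illumina HT-12 arrays, 1 per sample. The deposited table gives, per the file headers, a mean bead intensity for each probe and array, before any background correction or normalization. The deposited detection p-values, per the file headers, rank each signal among negative control beads. The authors' processed table, on a log2-like scale whose exact transform no source here states, served as an alternative. GenomeStudio 2010.1 and lumi are named per the submitters' processing notes.

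Signals of 47322 probes were background corrected with limma 3.58.1 (R 4.3.3, statmod 1.5.0; normexp, negative controls inferred from detection p-values, offset 16, which compresses folds of dim probes), quantile normalized and log2 transformed. A probe stayed in when detected, with a p-value under 0.05, on 3 or more of the 6 arrays (17871 did). Each gene took its brightest kept probe with 1 symbol in the platform annotation (30112 probes carry 1 symbol, 8 several, 17202 none). All 87 Rab probes matched an Entrez gene, and 0 symbols needed an update. Two-sided p-values from limma with an intensity trend were adjusted by Benjamini and Hochberg over 10406 genes, and the code was tested on simulated data. The number of arrays limits the precision.

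The Rab genes, their compartments and the partner lists were chosen with earlier results of these data known, and RAB6D was added to the little studied genes later. Named were the changed Rab genes, the 2 with the brightest probes per compartment, other kept probes of these, and up to 4 changed members per partner list. Other names were chosen after their values were seen. Alternatives were another background treatment, offset, scaling, filter, probe rule, moderation, a replicate block and leaving out single arrays. Probe sequences were not used here.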

Additional observations from a re-analysis of the deposited data

How the results depend on the processing

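Changed genes numbered 2224 in all, 8 among Rab genes (4 higher, 4 lower) and 18 among their partners. Without a filter on dim probes, which tests 20046 genes, these were 1477, 3 (2 higher, 1 lower) and 11. Without the intensity trend they were 1373, 5 (2 lower) and 11. Median scaling left 1 Rab gene higher and 6 lower. Leaving out single arrays gave 1218 to 2544 genes, 3 to 8 Rab genes (1 to 4 higher, 1 to 4 lower) and 7 to 20 partners. A stricter filter, a detection p-value under 0.01 on all 6 arrays, tested 36 Rab genes without RAB7B and RAB33B and called 6, and 2032 genes in all. The median Rab difference of -0.09 was -0.0538 without background correction, -0.0445 in the authors' processed table, -0.260 with median scaling, -0.0454 without the filter, -0.0460 over all kept probes singly and -0.103 to -0.0264 without single arrays. Signs turned only in values that had not passed. With median scaling RAB23 was at -0.194, RAB32 at -0.120, RAB6A at -0.176, RAB9A at -0.179 and the second RAB2A probe at -0.180. Leaving out single arrays put RAB8A between -0.212 and 0.0307 and the second RAB5C probe between -0.177 and 0.0874. The cause was not tested. RAB5B and RAB7A passed, lower, only with median scaling. Over the single genes named and all alternatives, 574 values kept their side of the threshold with no turn of sign beyond 1 standard error, 119 lost a call, 4 gained one and 7 turned sign. Samples share only a replicate number. Same-numbered samples did not deviate together (correlations -0.0316, -0.0289 and -0.0457), and with the replicate number as a block 1903 genes, 6 Rab genes (RAB22A and RAB2A lost) and 12 partners changed. By compartment, changed Rab genes of the ER and Golgi went from 3 to 0 without the filter and to 1 to 2 without single arrays. Those of early endosomes went from 1 to 2 with median scaling, to 0 without the filter, without the trend and with the block, and to 0 to 1 without single arrays. Recycling endosomes went from 0 to 1 without control replicate 3. Late endosomes and lysosomes went from 1 to 2 with median scaling and to 0 under the stricter filter. Post-Golgi genes went from 2 to 1 with median scaling, without the filter, without the trend and, at the lowest, without single arrays. Cilium genes went from 1 to 0 with median scaling and without histamine replicate 2. Dim probes near the detection limit, such as those of RAB33B and RAB7B, carry larger standard errors (0.30 and 0.26) than the median Rab gene (0.15).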
